A study of Mus musculus with 9 samples.

Results

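The genes described here are Cpt1a, Slc25a20, Ucp2, Angptl4, Ehhadh and Pdk4, 6 genes of mitochondrial fatty acid entry and of the response to peroxisome proliferator-activated receptors (PPARs). They were taken by gene symbol from the 10260 gene symbols of 3 deposited tables of read counts per transcript. All 6 were listed in the table that compares both fatty acid groups, and 4 of them (Cpt1a, Slc25a20, Ucp2 and Angptl4) in each of the tables that hold controls. The study used AML12, a line of mouse hepatocytes, and 3 samples in each of 3 groups. Control cells were untreated. PA-OA cells were kept for 24 h with PA at 0.2 mM and OA at 0.4 mM, abbreviations taken here to mean palmitic and oleic acid. The last group, called Ang(1-7), received the peptide Ang(1-7) at 100 nM 30 min ahead of the same fatty acids. No agent was given to all 3 groups, the labels name no group with a carrier alone, and all samples are of 1 cell line.

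Long-chain fatty acids cross the inner mitochondrial membrane as carnitine esters. CPT1A on the outer membrane makes the acylcarnitine, and the carrier encoded by Slc25a20 exchanges it for free carnitine inside. Fatty acids and their derivatives are ligands of PPARs, nuclear receptors that bind DNA with RXR and, in hepatocytes, switch on genes of fatty acid oxidation. UCP2 is an inner membrane carrier related in sequence to SLC25A20, ANGPTL4 is a secreted inhibitor of lipoprotein lipase, EHHADH is an enzyme of peroxisomal beta-oxidation, and PDK4 is a kinase that switches off pyruvate dehydrogenase and so spares glucose.

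The sequences just upstream of the start sites of Cpt1a, Slc25a20 and Ucp2 are shown because PPAR:RXR dimers bind pairs of a hexamer spaced by 1 base. These genes were higher in PA-OA than in control cells, with limits given below. The part of PPARs in this was not tested. Each run covers 250 bases before to 30 bases after the start in the RefSeq table of GRCm38.p6, on the + strand, at chr19:3323051-3323330, chr9:108661886-108662165 and chr7:100493108-100493387. Capitals mark a stretch with the fewest mismatches, on either strand, to a pair of AGGTCA hexamers with any 1 base between them. Where stretches tied, the + strand was preferred, and on it the stretch furthest upstream.
Cpt1a: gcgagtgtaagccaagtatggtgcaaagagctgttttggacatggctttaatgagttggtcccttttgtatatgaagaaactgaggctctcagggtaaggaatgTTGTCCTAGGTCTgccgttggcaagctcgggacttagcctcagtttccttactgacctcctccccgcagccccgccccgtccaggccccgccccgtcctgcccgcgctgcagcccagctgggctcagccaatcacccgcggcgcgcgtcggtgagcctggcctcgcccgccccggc
Slc25a20: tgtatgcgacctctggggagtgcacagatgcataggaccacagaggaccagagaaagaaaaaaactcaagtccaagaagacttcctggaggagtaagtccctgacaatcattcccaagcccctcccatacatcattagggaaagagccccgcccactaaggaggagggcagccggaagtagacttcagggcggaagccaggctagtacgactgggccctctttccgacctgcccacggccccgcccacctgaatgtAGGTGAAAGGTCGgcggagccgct
Ucp2: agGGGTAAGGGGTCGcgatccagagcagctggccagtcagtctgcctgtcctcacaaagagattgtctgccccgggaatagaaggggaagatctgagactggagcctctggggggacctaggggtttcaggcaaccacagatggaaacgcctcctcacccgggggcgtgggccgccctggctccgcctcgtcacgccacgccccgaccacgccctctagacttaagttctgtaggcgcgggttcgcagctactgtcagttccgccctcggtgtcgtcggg
The Slc25a20 window held AGGTGAAAGGTCG, bases 7 to 19 after the start, which matched 10 of the 12 letters of the pair. Its differences from the pair, counted from 1 at the 5′ end and over 13 bases, were C5G and A13G, and 3.58% of the 32851 windows of the table held a stretch with as few mismatches. The best stretches of Cpt1a and Ucp2 matched 8 of 12 letters, as did those of Ehhadh and Pdk4, and 77.7% of all windows held one at least as close. An exact AGGTCA, searched on both strands, was found in 15.4% of all windows, once in that of Cpt1a and in none of those of Slc25a20, Ucp2, Ehhadh and Pdk4. That of Cpt1a lay outside the capitals, in a stretch of the other strand that also matched 8 of 12 letters. These matches describe letters in a short window and not binding, and Angptl4 was not in the sequence table.

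The listed counts came to 24588312 to 28704499 reads per library and table. Krt8 and Krt18, keratins of hepatocytes and other simple epithelia, made up most of the hepatocyte marker sum of 21094 to 23949 CPM (the usual count scaled to library size). Of 16 such markers, 8 or 9 were listed, and Alb, which encodes albumin and defines mature hepatocytes, was at 3.13 to 19.2 CPM in the libraries given fatty acids. Ang(1-7) 2 and 3 stood apart in markers of other tissues. Of 25 nervous system markers, 13 were listed. All 13 had reads in both libraries, summed to 230 and 205 CPM. The other fatty acid libraries had reads of 4 or 5 markers and 128 to 138 CPM, mostly Mbp. Nefl, Gfap and Tubb3 had 0 reads in every PA-OA library, so their listing rests on the Ang(1-7) group and favours this contrast. Markers of blood (3 of 7 listed) came to 4.70 and 3.13 CPM in the same pair of libraries against 0.364 to 1.29. Those of stellate cells and fibroblasts (6 of 12 listed) came to 23.6 and 16.6 CPM against 5.98 to 9.22. Some of these, such as Hbb-bs and Thy1, likewise had 0 reads in PA-OA. The correlation of log2 counts across genes, which are not independent replicates, was 0.930 and 0.933 between Ang(1-7) 2 and the other libraries of its group. It was 0.972 to 0.988 in all other pairs of the same group. Ang(1-7) 1 and 3 correlated at 0.988, so by this measure only Ang(1-7) 2 stood apart. Because of the markers in Ang(1-7) 2 and 3, member changes that involve Ang(1-7) are also given with Ang(1-7) 1 as the lone library of its group. That library is assumed to vary like the other group.

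Levels of the 6 genes differed widely. Per kilobase of transcript, and over the 6 fatty acid libraries, Angptl4 was at 36.8 to 51.8 CPM per kb (median 43.1) and Slc25a20 at 33.8 to 41.2 (median 39.2), ranges that overlapped. Ucp2 followed at 2.53 to 4.76 CPM per kb and the curated Cpt1a transcript at 0.655 to 1.19. Ehhadh, at 0.117 to 0.923 CPM per kb, overlapped both Cpt1a and Pdk4, which was lowest at 0.0200 to 0.143. Listed counts also differed with the number of annotated transcripts. In the table of both fatty acid groups, the median gene with 1 RefSeq transcript had a mean of 1547 reads (3052 genes), that with 2 to 3 had 176 (2880 genes) and that with 4 or more had 51.5 (3749 genes). Slc25a20, Angptl4 and Pdk4 have 1 RefSeq transcript, Ucp2 and Ehhadh 2 and Cpt1a 6, so levels are compared between groups and only loosely between genes. How reads shared by several transcripts were counted is not given in the sources used here, and its part in these levels was not tested.

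**Figure D1:**
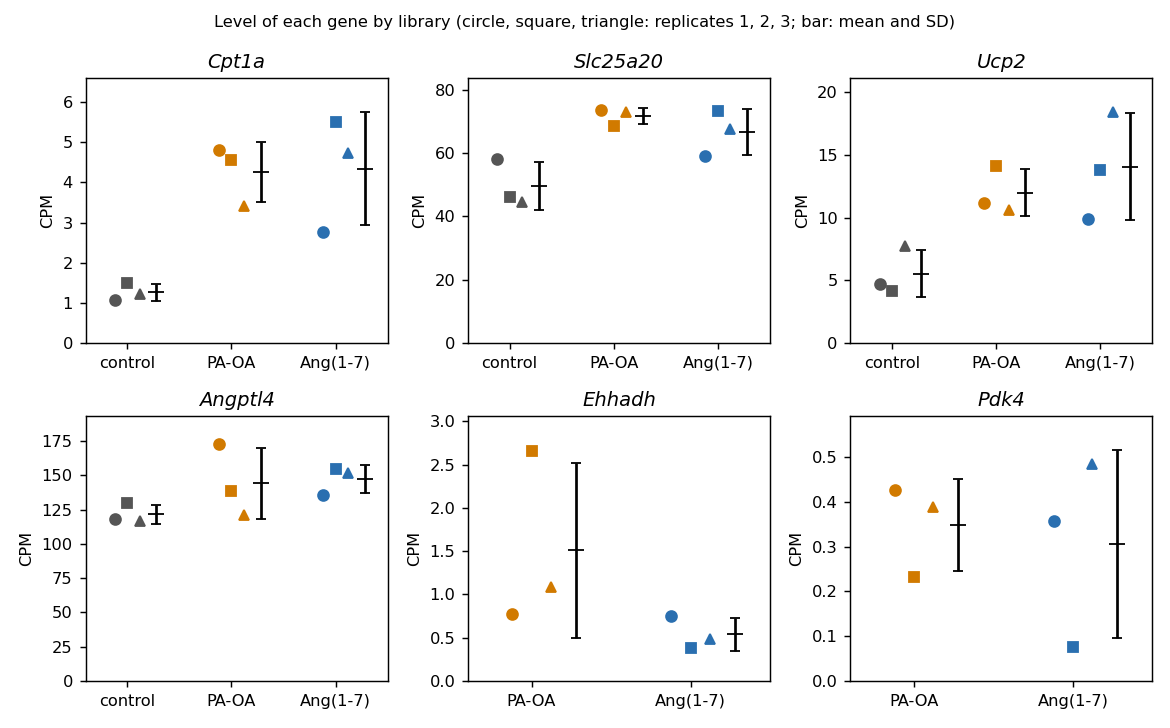
CPM (y axis, from 0) of each gene in each library (x axis: groups), with circles, squares and triangles for replicates 1, 2 and 3 and a bar for the mean and SD of 3 libraries. Cpt1a, Slc25a20, Ucp2 and Angptl4 are scaled over all 9 libraries and Ehhadh and Pdk4 over the 6 fatty acid libraries. Cpt1a, shown by its curated transcript alone, goes from a mean of 1.26 CPM in controls to 4.26 in PA-OA and 4.35 in Ang(1-7).

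In cells given fatty acids alone, the entry genes and Ucp2 rose over untreated cells. Cpt1a, on its curated transcript alone, increased 3.37-fold, Ucp2 2.16-fold and Slc25a20 1.44-fold, while Angptl4 did not pass the test. Cpt1a was listed in this table only through its PA-OA libraries: its control mean of 33.7 reads lay under the lowest mean count of any listed transcript, 56.8, and its PA-OA mean of 110 reads above it. Its test and rank are therefore given as a description, since at the control level in both groups it would have fallen under that mean. Of the 3 members with both group means above it, Slc25a20 and Ucp2 rose and Angptl4 was not called (edgeR, adjusted over 6213 genes). Of all genes, 2.82% rose and 5.05% changed in either direction. The members were chosen with earlier results of these data known, so their count beside these shares is a description. The groups overlapped in Angptl4 and not in Cpt1a, Slc25a20 and Ucp2, a separation that their calls already favour. They did not overlap in 23.8% of all genes. In one fit of all 9 samples none of the 3 was called (adjusted p = 0.167 for Cpt1a, 0.238 for Slc25a20 and 0.267 for Ucp2), at log2 changes of 1.75, 0.53 and 1.11. The low-count filter of edgeR removed no member. In bulk RNA, fewer cells of one kind and less RNA per cell cannot be told apart. A vehicle of the fatty acids, if there was one, and the acids themselves cannot be told apart. Cholangiocyte markers (5 of 8 listed, all above 0) summed to 2023 to 2172 CPM in controls and 1578 to 1720 in PA-OA, and their part in the results was not tested.

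Cpt1a, the gate of mitochondrial fatty acid oxidation, was at 1.07, 1.49 and 1.22 CPM in controls 1 to 3 and at 4.80, 4.56 and 3.42 in PA-OA 1 to 3. The lowest PA-OA library lay above the highest control. Few reads stood behind these levels: 29, 40 and 32 for controls 1 to 3, then 124, 117 and 88 for PA-OA 1 to 3, all of the curated transcript NM_013495.2, the only one of the gene in this table. Where predicted transcripts are listed too, it made up 42.9% to 51.2% of the gene's reads in PA-OA. Those transcripts have no control values. The log2 change was 1.75 ± 0.49 (SE, 95% interval 0.72 to 2.78, adjusted p = 0.0439), and 0.145% of listed genes changed more, a rank that the listing itself favours. With 5 libraries Cpt1a kept its size but was not called in any of the 6 fits (log2 change 1.64 to 1.88, adjusted p = 0.0794 to 0.163), nor in limma-voom (adjusted p = 0.0626), and as a transcript among 6936 it had an adjusted p of 0.0541. At that level 2 of the 4 member transcripts, those of Slc25a20 and Ucp2, were called, beside 3.89% of all transcripts.

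Slc25a20, which carries the acylcarnitine made by CPT1A, was the member with the smallest called change. It had 58.2, 46.0 and 44.6 CPM in controls 1 to 3 and 73.5, 68.7 and 73.0 in PA-OA 1 to 3. Control 1 was the highest control and still lay below all PA-OA libraries, whose SD was 3.70% of their mean. The log2 change was 0.53 ± 0.13 (95% interval 0.26 to 0.80, adjusted p = 0.0207). It was called in 3 of 6 fits with 1 library left out and not without control 2 (adjusted p = 0.0832), control 3 (0.0944) or PA-OA 3 (0.0855), over a log2 change of 0.46 to 0.66.

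Ucp2 was at 4.73, 4.17 and 7.69 CPM in controls 1 to 3 and at 11.1, 14.1 and 10.6 in PA-OA 1 to 3. Control 3 was the highest control, and no PA-OA library came as low. The log2 change was 1.11 ± 0.31 (95% interval 0.46 to 1.76, adjusted p = 0.0439). Without control 3 it was 1.42 (adjusted p = 0.0225), and with any other library left out Ucp2 was not called (adjusted p = 0.0562 to 0.207). UCP2 is also abundant in macrophages. The 4 listed of 14 macrophage markers summed to 783 to 809 CPM in controls and 907 to 1038 in PA-OA, all 4 above 0 in every library. Cd14 was at 580 to 623 CPM in controls and 667 to 808 in PA-OA, and Mrc1 at 183 to 196 and 213 to 258. Cd68 was at 1.43 to 4.13 CPM in controls and 3.09 to 4.95 in PA-OA, and Lyz2 at 0.958 to 5.64 and 1.40 to 4.09. The part of these markers in the Ucp2 result was not tested.

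Angptl4, a PPAR target in many tissues, was at 118, 130 and 117 CPM in controls 1 to 3 and at 172, 139 and 121 in PA-OA 1 to 3. The groups overlapped, since PA-OA 3 was below control 2, and PA-OA 1 stood highest. The log2 change was 0.24 ± 0.11 (adjusted p = 0.242). Its 95% interval of 0.0069 to 0.48 overlapped those of Slc25a20 and Ucp2 and not that of Cpt1a. The difference between genes was not tested. Without PA-OA 1 the log2 change was 0.085.

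**Figure D2:**
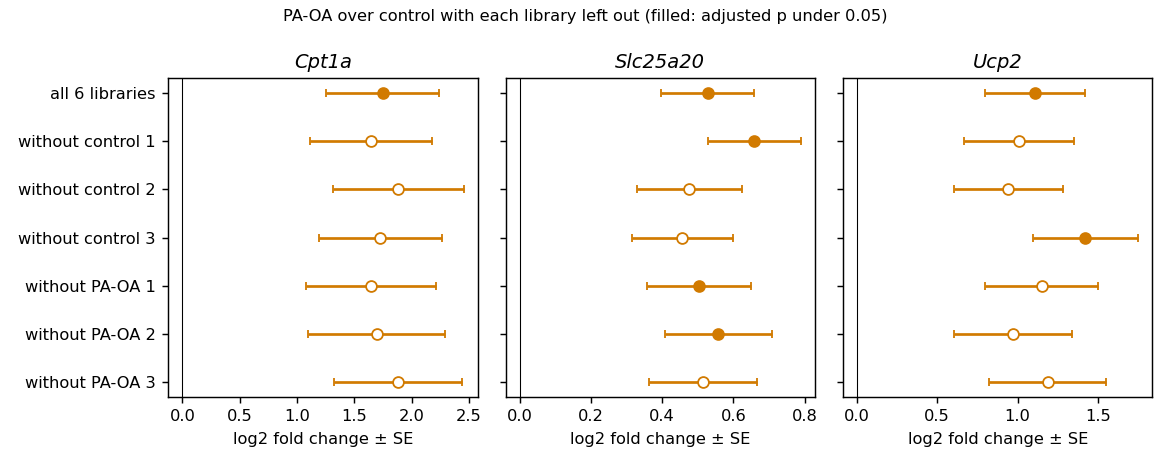
Log2 fold change with its SE (x axis) of Cpt1a, Slc25a20 and Ucp2 for PA-OA over control, with all 6 libraries and with each library left out in turn (y axis); filled points have an adjusted p under 0.05. Every estimate lies above 0, and with a library left out Cpt1a has no filled point, Slc25a20 has 3 and Ucp2 has 1.

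Around the members, 119 genes of 8 lists were examined, 58 of which were tested in this comparison. Of these, 6 rose and 0 fell, against 2.82% and 2.24% of all genes. Besides Cpt1a, Slc25a20 and Ucp2 they were Acot1, Acot2 and Plin2. At an unadjusted p under 0.05 there were 16, and DESeq2 called 8 and limma-voom 4. Leaving out any one library lowered the count, to 2 for control 2 and for PA-OA 3 and to 3 for each of the others, and the fit of all 9 samples gave 2. Of the 6, Cpt1a alone had a control mean under the lowest mean count of the table. The median log2 change of the 58 genes was 0.10 and that of all genes 0.01. These lists were drawn up with earlier results of these data known.

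Of 18 tested genes of mitochondrial entry and oxidation, Slc25a20 rose, as did Cpt1a, which was listed only through its PA-OA libraries. None fell and 16 were not called, with a median log2 change of 0.08. Of all genes, 2.82% rose. Cpt2, which turns acylcarnitine back into acyl-CoA inside the mitochondrion, had a log2 change of 0.17 ± 0.16 (adjusted p = 0.618). Acadl (0.39 ± 0.13, adjusted p = 0.0912) and Acaa2 (0.28 ± 0.09, adjusted p = 0.0745), which act in the first and last steps of the beta-oxidation spiral, were not called. Of 7 peroxisomal oxidation genes, 0 were called by edgeR, and 0 had an unadjusted p under 0.05 (median 0.09).

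Among 8 tested genes of a further list of PPAR targets, Ucp2 and 3 others rose, 0 fell and 4 were not called (median 0.80). Acot1 and Acot2, thioesterases that free fatty acids from acyl-CoA in the cytosol and the mitochondrion, rose by 0.94 ± 0.08 and 0.99 ± 0.17 (adjusted p = 1.35e-07 and 0.00106). Plin2, a lipid droplet coat protein, rose from 3.78 ± 0.86 to 9.28 ± 2.65 CPM (SD, n = 3 per group), a log2 change of 1.29 ± 0.35 (adjusted p = 0.0386). Hilpda, another droplet protein, was not called (0.65 ± 0.19, adjusted p = 0.0534).

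Of the nuclear receptor list, 5 genes were tested and 0 were called (median 0.81), among them Ppard, which encodes the delta receptor (0.90 ± 0.47, adjusted p = 0.307). Ppara and Pparg, which encode the alpha and gamma receptors, were not listed in any of the 3 tables. The 4 tested genes of malonyl-CoA and AMPK, which set how open CPT1A is, had a median of -0.26 and 0 calls. In neither of these lists was an unadjusted p under 0.05. The 10 tested genes of pyruvate dehydrogenase and its kinases had a median of -0.09 and 0 calls, with 3 at an unadjusted p under 0.05. Of 6 tested carriers of the list around Ucp2 and Slc25a20, those 2 rose and 4 were not called (median 0.57). Angptl8, which encodes a secreted protein of liver and fat, had a log2 change of 0.98 ± 0.29 (adjusted p = 0.0566), and of the 3 tested genes of its list 0 were called, all 3 with an unadjusted p under 0.05 (median 0.27).

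**Figure D3:**
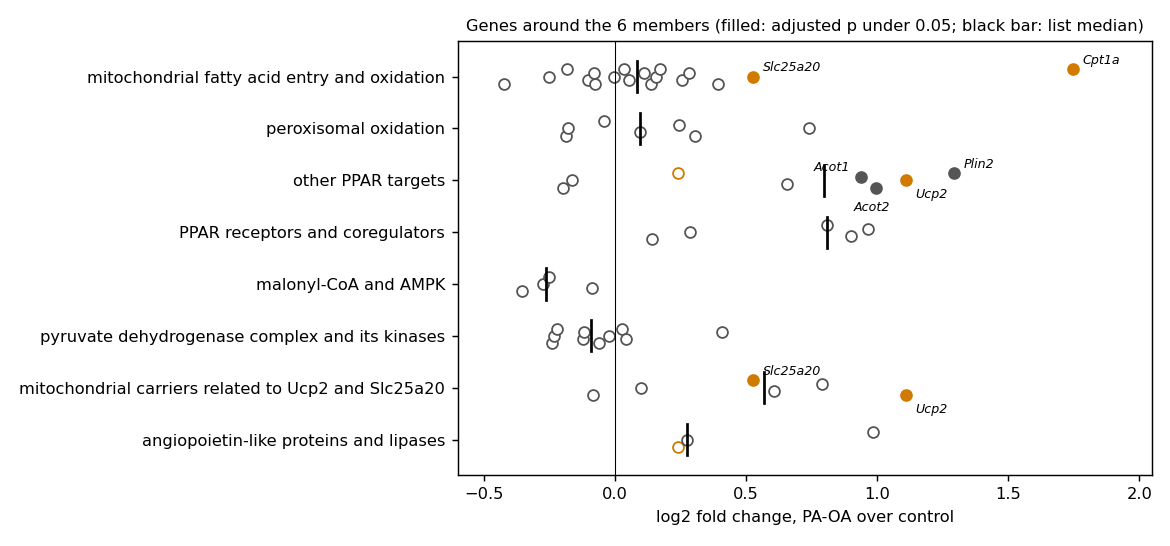
Log2 fold change, PA-OA over control (x axis), of each tested gene of 8 lists (y axis), with members in orange, called genes filled and named, and the list median as a black bar. The called genes all lie to the right of 0, and most oxidation and pyruvate dehydrogenase genes lie close to it.

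Cells given Ang(1-7) before the fatty acids were next set against cells given fatty acids alone, the comparison nearest to the study's title, which speaks of steatosis under Ang(1-7). None of the 6 members was called by edgeR or DESeq2 (adjusted p = 0.965 to 0.989 in edgeR, lowest unadjusted p = 0.114), and edgeR called 0% of 9261 genes (0 genes, 236 with an unadjusted p under 0.05, and 5 in DESeq2). The 95% intervals bound how far the better measured members could differ: the log2 change was -0.10 (-0.43 to 0.22) for Slc25a20, 0.034 (-0.31 to 0.38) for Angptl4, 0.24 (-0.41 to 0.88) for Ucp2 and -0.17 (-0.82 to 0.47) for Cpt1a. The members with few reads were bounded loosely, at -3.41 to 0.44 for Ehhadh and -2.92 to 2.53 for Pdk4. Of 81 tested list genes, 0 were called by edgeR or DESeq2 and 0 had an unadjusted p under 0.05, and their median was -0.06, beside -0.0087 for all genes.

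In Ang(1-7) 1 to 3, Ucp2 was at 9.91, 13.8 and 18.4 CPM and Slc25a20 at 59.1, 73.3 and 67.5. Angptl4 was at 136, 155 and 151 CPM. Each of these ranges overlapped that of PA-OA. Ang(1-7) 1 was the lowest of its group for all 3 genes and for the curated Cpt1a transcript, which had 2.77, 5.52 and 4.75 CPM. Ang(1-7) 2 and 3, the other libraries, are those with nervous system markers, and the part of these in the levels was not tested. With Ang(1-7) 1 as the lone library of its group, the log2 change was -0.27 for Ucp2, -0.28 for Slc25a20, -0.085 for Angptl4, -0.17 for Cpt1a, -0.998 for Ehhadh and 0.029 for Pdk4, with 0 members called.

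Cpt1a was listed here through 4 transcripts, 1 curated and 3 predicted, so its summed level differs from that in the tables with controls. Summed over them, PA-OA 1 to 3 held 255, 273 and 172 reads, while Ang(1-7) 1 to 3 held 203, 195 and 235. The groups overlapped. The curated transcript, NM_013495.2, made up 48.6%, 42.9% and 51.2% of the gene's reads in PA-OA 1 to 3. It made up 34.5%, 75.4% and 54.5% in Ang(1-7) 1 to 3, with Wilson 95% intervals of 28.3% to 41.3%, 68.9% to 80.9% and 48.1% to 60.7% that cover counting error only. Its share was thus highest in Ang(1-7) 2 and lowest in Ang(1-7) 1.

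The predicted transcript XM_006531655.2 was counted 112, 73 and 29 times for PA-OA 1 to 3, against 58, 0 and 41 times for Ang(1-7) 1 to 3. The count of 0 in Ang(1-7) 2 allows a share of up to 1.54% of the gene's reads, against 16.9% to 43.9% in the other 5 libraries. XM_006531659.2 had 2 reads in PA-OA 1 and 19 to 50 in the others, and XM_006531654.2 had 17 to 42 in all 6. No transcript of Cpt1a was called between the groups (adjusted p = 0.996 to 0.998 over 12278 transcripts, of which 0% were called). On the curated transcript alone the log2 change was 0.04 (-0.86 to 0.94).

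**Figure D4:**
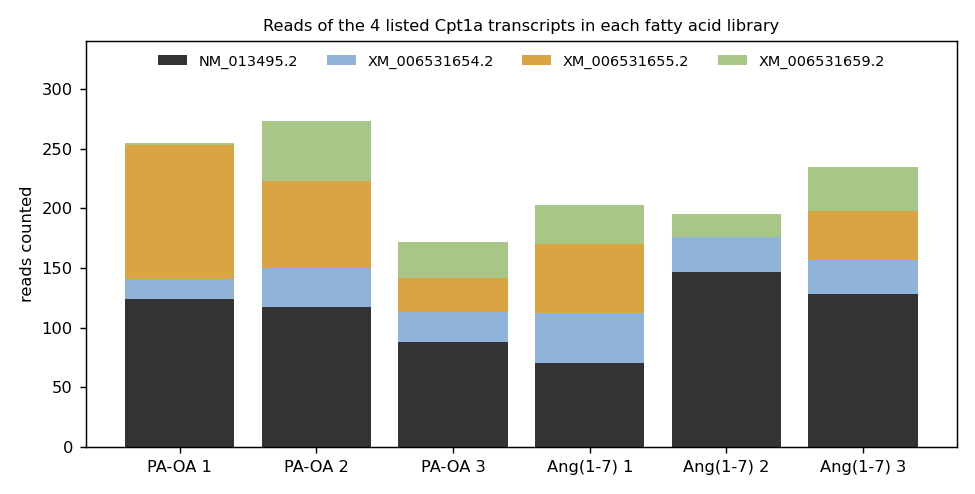
Reads counted (y axis, from 0) for the 4 listed Cpt1a transcripts, stacked, in each of the 6 libraries given fatty acids (x axis). The curated NM_013495.2 has 70 to 147 reads, and XM_006531655.2, with 29 to 112 reads in 5 libraries, has none in Ang(1-7) 2.

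Ehhadh, the peroxisomal bifunctional enzyme, was read 20, 69 and 28 times for PA-OA 1 to 3, against 19, 10 and 13 times for Ang(1-7) 1 to 3. The groups did not overlap in CPM (0.774 to 2.66 and 0.375 to 0.753), as was the case for 11% of genes, and PA-OA 1 had 20 reads and Ang(1-7) 1 had 19. The log2 change of -1.49 ± 0.85 was not called (adjusted p = 0.965). PA-OA 2 stood highest, and without it the log2 change was -0.79. Pdk4, which turns down glucose oxidation, was read 11, 6 and 10 times for PA-OA 1 to 3, against 9, 2 and 13 times for Ang(1-7) 1 to 3, and the groups overlapped. Its log2 change was -0.20 ± 1.21 (adjusted p = 0.989), 0.27 without Ang(1-7) 2. A response of these genes to fatty acids was not analysed here, since the tables with controls do not list them. The lowest mean count in those tables was 56.8 and 59.5 reads, above the means of both genes in the fatty acid libraries.

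**Figure D5:**
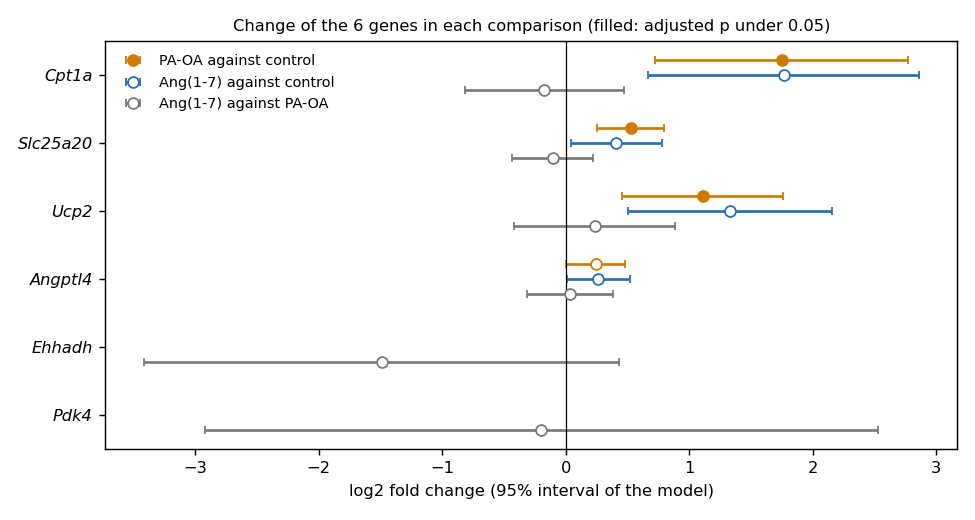
Log2 fold change with its 95% interval (x axis) of each member (y axis) in the 3 comparisons, filled where the adjusted p is under 0.05. Intervals for PA-OA and for Ang(1-7) over control lie to the right of 0 for Cpt1a, Slc25a20, Ucp2 and Angptl4, and all 6 intervals of Ang(1-7) over PA-OA include 0.

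Against untreated cells, which both fatty acid comparisons share as controls, the Ang(1-7) group had log2 changes of 1.76 ± 0.48 for Cpt1a, 1.33 ± 0.36 for Ucp2, 0.41 ± 0.16 for Slc25a20 and 0.26 ± 0.11 for Angptl4. In PA-OA the values were 1.75, 1.11, 0.53 and 0.24. The groups did not overlap in any of the 4 members, as in 26.5% of all genes. Cpt1a was again listed by its curated transcript alone. It was listed only through the treated libraries, with a control mean of 33.7 reads under the table's lowest mean count of 59.5. None was called by edgeR (adjusted p = 0.173, 0.173, 0.293 and 0.325; unadjusted p = 0.00572, 0.00584, 0.0336 and 0.045), where 0.245% of 6134 genes were called. None of their 4 transcripts was called either, beside 0.205% of all transcripts. DESeq2 called Ucp2 (adjusted p = 0.0211). That a member passed in one comparison and not in the other does not show a difference between the fatty acid groups.

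Of the libraries left out in turn, Ang(1-7) 2 changed the number of calls most, and among the members only the call of Ucp2. Without that library, edgeR called 624 genes in place of 15. Ucp2 was among them (log2 change 1.35, adjusted p = 0.0206), while Cpt1a was not (1.57, adjusted p = 0.0877). The count was 32 without Ang(1-7) 1, 7 without Ang(1-7) 3 and 4 without each control. With Ang(1-7) 1 as the lone library, the log2 changes were 1.13 for Cpt1a, 0.83 for Ucp2, 0.25 for Slc25a20 and 0.15 for Angptl4, with none called (adjusted p = 0.501 to 0.702). Of 58 tested list genes, edgeR called 0 with all 6 libraries (10 at an unadjusted p under 0.05, 4 in DESeq2), 4 without Ang(1-7) 2 and 2 with Ang(1-7) 1 alone. With all 6, Acot1 had a log2 change of 0.75 ± 0.12 (adjusted p = 0.0514).

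Of the 12 coefficients of variation of these 4 members within groups, the lowest were those of Slc25a20 in PA-OA (3.70%) and Angptl4 in controls (5.82%). The highest were those of Ucp2 in controls (34.2%) and Cpt1a in Ang(1-7) (32.5%). Cpt1a over all 9 libraries, here and in the next paragraph, is its curated transcript alone. Summed over its 4 listed transcripts, it was at 8.04 ± 0.73 CPM (SD) in Ang(1-7). Over all 9 libraries, which share the contrast of control with fatty acid groups, the log2 levels of Cpt1a correlated with those of Ucp2 at r = 0.889 and with those of Slc25a20 at r = 0.857. The lowest r among the 4 members was 0.606, between Ucp2 and Angptl4.

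Genes with the most similar pattern over the 9 libraries were sought among 5147 or 5148 named genes by Pearson's r of log2(CPM + 1). For Cpt1a they were Ext1, a glycosyltransferase of heparan sulfate chains (r = 0.978), Serpinb9, an inhibitor of granzyme B (0.974), and Lcn2, which binds siderophores (0.965). For Slc25a20 they were Pkd1l1 (r = 0.968), Setd5 (0.935) and Plscr2 (0.932). For Ucp2 they were Zdhhc3, a palmitoyltransferase (r = 0.956), Pacs1 (0.952) and Arl8a, a lysosomal GTPase (0.947). For Angptl4 they were the transcription factor gene Hhex (r = 0.922), Cd14 (0.905) and Sntb2 (0.899). These are the highest of all values searched, over libraries that share the contrast of control with fatty acids, and are given as a description. Spearman's rho of the 12 genes was 0.817 to 0.967.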

How the data were processed

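RNA of 9 AML12 samples was sequenced, and the authors deposited 3 tables, 1 per pair of groups, of whole-number read counts per RefSeq transcript. They also hold the authors' deposited log2 fold changes and p-values, which were not used for the results. Per the submitters' processing notes, HISAT2 2.2.5, HTSeq 0.11.2 and bcl2fastq were used, with a human build although the transcripts are mouse. No source used here gives the counting options, the annotation release or why low transcripts are missing from the tables with controls. A suffix was removed from the symbol of Plin2. A sample had equal counts in every table that held it.

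Counts were summed by gene symbol and tested within each pair's table with edgeR 4.0.16 (R 4.3.3), scaled by TMM and filtered by filterByExpr. The quasi-likelihood F test was two-sided and had no replicate term, with Benjamini-Hochberg adjustment over all genes tested and a threshold of 0.05. Transcripts were tested in the same way. CPM are scaled by trimmed means, except marker sums and levels per kb, which use listed totals. Lengths are those of GENCODE M21 transcripts matched by RefSeq accession. The test was checked on simulated counts. Alternatives were DESeq2 1.42.0, limma-voom 3.58.1, other scaling, filters and transcript sets, a fit of all 9 samples, a replicate block and leaving libraries out. Named genes are the 6 members, up to 3 called genes of each list, and the 3 genes most like each member listed in all 3 tables (mean of at least 100 counts, unnamed gene models left out). Members and lists were chosen with earlier results of these data known. Genes named besides these were chosen after their values were seen.

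Whether the samples of a group were grown separately is not stated in the labels. The p-values therefore reflect the spread among these samples alone, and that spread may be technical. No 2 libraries of a group agreed within sampling noise (chi-square per degree of freedom 19.7 or more), so each counts once.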

Additional observations from a re-analysis of the deposited data

How the results depend on the processing

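In PA-OA against control, the 3 members called kept their direction under every alternative run. The count called was 1 with a replicate block, 0 in one fit of all 9 samples and 0 to 1 with a library left out, while the genes called were 533 in DESeq2, 33 in the fit of 9 and 99 to 397 with a library left out. With the replicate block the log2 changes were 1.74 for Cpt1a (adjusted p = 0.0669) and 1.15 for Ucp2 (0.0557), neither called. Limma-voom gave 1.73 for Cpt1a, and DESeq2 no adjusted p for it in either comparison with controls. The fit of 9 gave 1.75 for Cpt1a, 0.53 for Slc25a20 and 1.11 for Ucp2 (adjusted p = 0.167 to 0.267). With a library left out, the log2 changes ranged from 1.64 to 1.88, 0.46 to 0.66 and 0.94 to 1.42. Of member transcripts, 2 were called, 1 with the replicate block and 0 to 1 with a library left out; that of Ucp2 was at 1.14 with the block. The cause of these shifts was not tested. Same-numbered samples deviated together at r = 0.0211, 0.0476 and 0.0226 in this pair, under 0.1, so the numbers were not taken to pair samples, although each of these 6 correlated best with its own number, a hint from the data. In the other pairs they deviated at -0.127 to 0.0676.

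In Ang(1-7) against PA-OA, DESeq2 called 5 genes and edgeR 0 to 18 with a library left out. Signs of members turned without a call: Cpt1a was 0.0293 on the transcripts of all 3 tables and in the fit of 9, which hold only its curated transcript, and with Ang(1-7) 1 alone Ucp2 was -0.27, Angptl4 -0.0852 and Pdk4 0.0291. With a library left out, Ucp2 ranged from -0.012 to 0.44, Angptl4 from -0.0759 to 0.19 and Pdk4 from -0.69 to 0.27. Their transcripts did likewise (-0.0136 to 0.44, -0.0757 to 0.196 and -0.69 to 0.27), and for Cpt1a NM_013495.2 ranged from -0.168 to 0.27 and XM_006531659.2 from -0.445 to 0.857. In Ang(1-7) against control, the genes called were 259 in DESeq2, 100 in the fit of 9, 229 with Ang(1-7) 1 alone and 4 to 624 with a library left out. Members called were 1 in DESeq2 (Ucp2, 1.33) and 0 to 1 with a library left out, where Ucp2 ranged from 1.08 to 1.64, and member transcripts called were 0 to 1. No value could be had for Ehhadh and Pdk4 from the shared transcripts or the fit of 9, where they are not listed. Reads limit Ehhadh and Pdk4 most, with 2 to 69 reads per library.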
